A study of Mus musculus with 20 samples.

Results

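Atria of 3-day-old knockout pups (P3) were compared with whole hearts of knockout embryos at E13.5, both from C57BL/6N mice whose genotype is labelled MyHC-Creld1 KO. The comparison used 7 of the 20 libraries of the series, 3 from knockout P3 atria and 4 from knockout E13.5 hearts, chosen by their labelled genotype, stage and tissue. Creld1 encodes a membrane glycoprotein. The series describes its deletion as myocardium-specific, so endothelial, fibroblast, epicardial and blood cells of these hearts are taken to keep the gene. The labels give neither the Cre line nor the deleted exons. The wild-type libraries drawn on below came from C57BL/6N littermates, 4 from E13.5 hearts and 3 from P3 atria, and the same 3 knockout pups also gave 3 libraries of P3 ventricles. Each library was made from 1 animal. By the number and date in the labels, the E13.5 hearts came from 3 litters, with replicates 2 and 3 from the same one. The P3 atria came from 3 others by the same reading. Atrial replicates 2 and 3 carry the same label number with different dates, and whether these pups are related is not given.

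Between E13.5 and P3 a mouse heart passes from a chambered organ that is still septating, beats under low oxygen and receives primitive red cells from the yolk sac to a postnatal one that burns more fatty acid and has a stiffer matrix. Atrial and ventricular muscle carry different myosin light chains, calcium regulators and secreted peptides. A whole E13.5 heart holds both chambers, the outflow tract and the cushions that form the valves, whereas P3 atria hold 1 kind of chamber. Stage, dissection, litter and, for 3 of the 4 embryos, year of preparation (2016, against 2018 for all pups) changed together and cannot be told apart in this contrast. In bulk tissue, fewer cells of a type and less RNA per cell cannot be told apart either.

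Levels are given as the authors' normalized values, which are linear and comparable between libraries for 1 gene. Differences are P3 atria minus E13.5 hearts on the scale of log2(value + 1), with their standard error (SE) from limma, a linear model fitted across all genes. A gene is said to have risen or fallen where its Benjamini-Hochberg adjusted p was under 0.05. Among 15299 genes tested, 194 rose (1.27%) and 115 fell (0.752%), together 309 or 2.02%. The groups did not overlap at 2410 genes (15.8%), with all 3 atria above all 4 E13.5 hearts at 1327 (8.67%) and below them at 1083 (7.08%). A further view is that 4058 genes (26.5%) differed by a log2 difference of 1 or more in size and 2362 (15.4%) had an unadjusted p under 0.05. The median difference over all genes was 0.01, and 50.6% of them had a positive difference. All 309 called genes had groups that did not overlap, 286 of them code for protein, and 20 were listed at 0 throughout 1 group. Genes were tested if they reached 10 in at least 3 of the 7 libraries. A gene under 10 throughout 1 group passed only through the other, so the filter itself helped to set its groups apart.

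Creld1 itself did not follow its labels in every library. With positions on GRCm38 throughout, it lies on chromosome 6 (bases 113483297 to 113493343, plus strand), and it measured 70.9, 7.48, 38.4 and 4.64 in replicates 1 to 4 of the E13.5 hearts labelled knockout and 23.1, 26.6 and 82.4 in replicates 1 to 3 of the atria so labelled. Wild-type littermates of the same numbers measured 65.96, 92.2, 60.8 and 34.05 at E13.5 and 105, 21.6 and 146 in atria. The library labelled knockout thus lay above its wild-type littermate in E13.5 replicate 1 and atrial replicate 2. For atrial replicate 2 the wild-type value of 21.6 is a low count, since 1 count there was worth an estimated 2.21. Atrial replicate 3 had the highest Creld1 of the 7 knockout libraries but lay below its wild-type littermate. Between the knockout groups Creld1 differed by 0.99 (SE 0.98, limma adjusted p = 0.675), and its paralog Creld2 by 0.50 (adjusted p = 0.55). Tests without the knockout libraries of E13.5 replicate 1 and atrial replicate 2, which kept atrial replicate 3, left 42 genes that rose and 39 that fell. Whether any label is wrong was not tested.

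Depth, estimated from the step between low values, was 6716816 to 13965262 counts for the E13.5 libraries and 10339319 to 16998517 for the atrial ones. Atrial replicate 3 stood apart by base composition. Against the mean of the other libraries of its group, its GC-rich genes exceeded its GC-poor ones by a log2 offset of 2.15. By the same measure the other atria, whose reference includes replicate 3, had -0.94 and -1.17 and the E13.5 hearts -0.25 to 0.30. Wild-type atrial replicate 3 had an offset of 2.29 within its own group. Without knockout atrial replicate 3, limma called 211 genes higher and 143 lower. Of the 309 calls 231 were shared, and all 309 genes kept their sign. With any 1 of the E13.5 libraries left out 109 to 123 rose and 58 to 68 fell, without atrial replicate 1 there were 74 and 73, and without atrial replicate 2 there were 95 and 84. Female and male libraries were mixed in both groups by the level of Xist and of Y-linked genes.

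The red cell transcripts that mark the embryo were almost gone from the atria. Hbb-y, Hba-x and Hbb-bh1 encode the embryonic beta-like and alpha-like globins of primitive red cells, and all 3 fell, while the adult globins Hbb-bs, Hbb-bt and Hba-a2 were not called. These are 3 of the 7 measured globin genes, and no globin rose. Their upstream 250 bases are shown for a pair from each cluster, the embryonic gene that fell and an adult gene that was not called, from RefSeq on GRCm38.p6 and on the strand of the gene. Upstream is counted from the RefSeq start. The gene bounds given below are from GENCODE, where both embryonic genes start further upstream. Most of the Hba-x window and the last bases of the Hbb-y window thus fall inside those bounds. Capitals mark 4 letter patterns searched on both strands, which may overlap, with a match on the other strand shown as its reverse complement: GATAA (in 22.6% of 32851 promoters of this length), CACCC (52%), CCAAT (33.8%) and ATANAA (32.7%).
Hbb-y chr7:103853208-103853457 minus strand: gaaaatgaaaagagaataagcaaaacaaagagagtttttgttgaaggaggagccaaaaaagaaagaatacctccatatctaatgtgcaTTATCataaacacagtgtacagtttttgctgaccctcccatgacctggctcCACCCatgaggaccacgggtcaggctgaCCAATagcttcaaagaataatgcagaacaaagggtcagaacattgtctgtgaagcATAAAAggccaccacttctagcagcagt
Hbb-bs chr7:103827929-103828178 minus strand: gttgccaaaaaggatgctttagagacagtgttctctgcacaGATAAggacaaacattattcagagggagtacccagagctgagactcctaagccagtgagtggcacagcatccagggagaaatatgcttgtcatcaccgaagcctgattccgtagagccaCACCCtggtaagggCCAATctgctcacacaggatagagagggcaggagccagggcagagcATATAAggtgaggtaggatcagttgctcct
Hba-x chr11:32276350-32276599 plus strand: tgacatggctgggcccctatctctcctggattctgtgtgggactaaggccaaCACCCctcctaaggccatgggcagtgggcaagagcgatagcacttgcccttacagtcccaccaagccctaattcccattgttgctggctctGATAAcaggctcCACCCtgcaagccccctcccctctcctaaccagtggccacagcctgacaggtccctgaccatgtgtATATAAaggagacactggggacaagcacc
Hba-a2 chr11:32296242-32296491 plus strand: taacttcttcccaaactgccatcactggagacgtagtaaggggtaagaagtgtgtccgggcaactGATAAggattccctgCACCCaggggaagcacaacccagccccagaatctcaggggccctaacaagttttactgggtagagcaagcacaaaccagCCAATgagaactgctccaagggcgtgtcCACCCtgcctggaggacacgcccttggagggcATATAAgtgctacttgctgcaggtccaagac
All 4 windows held the GATAA pattern, the CACCC pattern and an ATANAA copy whose first base lay 28 to 31 bases before the start. CCAAT was found at -83 in Hbb-y, -76 in Hbb-bs and -91 in Hba-a2, and was not in the Hba-x window. The embryonic and the adult gene of each cluster thus held the same kinds of letters here, with the exception of CCAAT in the alpha pair. A match is a description of the letters and not a bound site.

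Hbb-y on chromosome 7 (bases 103851749 to 103853216, minus strand) measured 78449, 34371, 27727 and 16089.7 in the 4 E13.5 hearts and 28.1, 10.96 and 1.92 in the 3 atria. It was abundant in every embryo, highest in replicate 1 and lowest in replicate 4, and at 28.1 or less in every atrium. The difference was -11.69 (SE 0.71, limma adjusted p = 2.24e-05). Hba-x, the embryonic gene of the alpha cluster on chromosome 11 (bases 32276400 to 32278116, plus strand), measured 13919.6, 5998, 6219 and 3245 at E13.5 and 1.44, 1.28 and 3.27 in atria, and its difference was -11.12 (SE 0.48, adjusted p = 1.22e-06). Hbb-bh1 was scarcer, at 549.6, 225, 255 and 89.8 against 0.562, 0.997 and 0, and differed by -7.31 (SE 0.75, adjusted p = 9.62e-04). In all 3 genes the order of the embryos began with replicate 1 and ended with replicate 4. The size of these differences depends on the constant added before the logarithm: with 5 in place of 1 they were -11.07, -9.85 and -5.43, and with 0.1 they were -11.92, -11.70 and -9.11, and the calls held.

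The adult globins overlapped between the groups. Hbb-bs measured 17695, 10313, 12586 and 3491 at E13.5 and 8659, 12448 and 31469 in atria, with a difference of 0.67 (adjusted p = 0.628). Hba-a2 measured 99656, 39440.4, 51234 and 17808 against 16406, 21381 and 73456 (difference -0.56, adjusted p = 0.737), and Hbb-bt differed by -0.62 (adjusted p = 0.645). For each of the 3, atrial replicate 3 was the highest atrium. Hbb-bs and Hbb-bt, and Hba-a2 and its copy Hba-a1, are near-identical, so reads may have been split between them. None of the 15 erythroid genes outside the globins was called, with 6 positive and 9 negative differences and a median of -0.31. Knockout ventricles had Hbb-y at 1.93, 3.04 and 34.8, overlapping the atria.

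**Figure D1:**
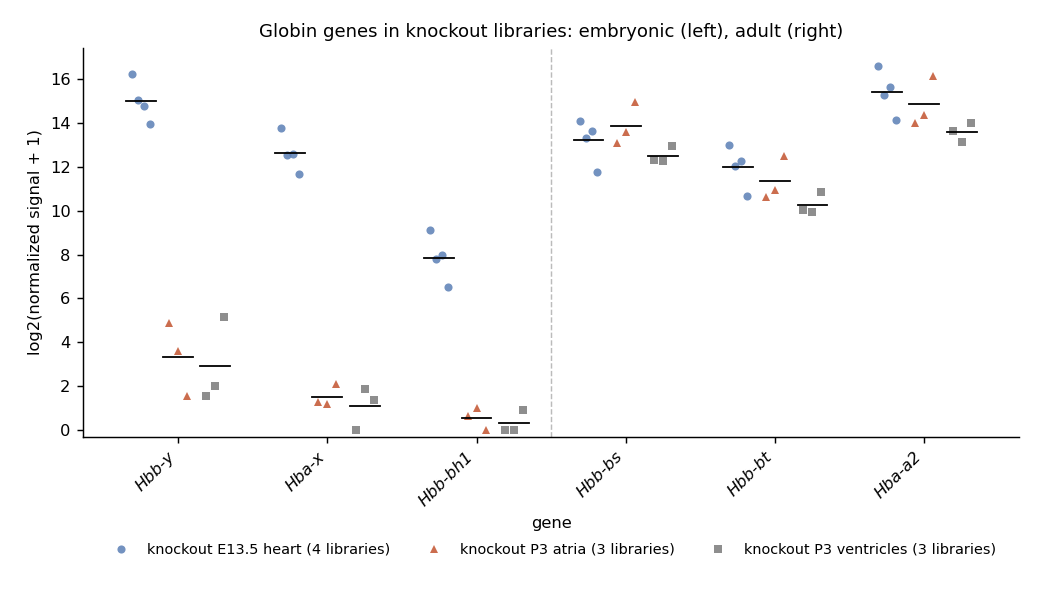
Log2(normalized value + 1) of 3 embryonic and 3 adult globin genes, 1 point per knockout library (4 E13.5 hearts, 3 P3 atria, 3 P3 ventricles) with a bar at each group mean. Each embryonic globin lies far lower in the atria than in every embryo, whereas the adult globins of atria and embryos overlap.

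Many genes of atrial muscle rose and many of ventricular muscle fell. Of 20 atrial genes measured, 9 rose and none fell (Sln, Myl7, Nppa, Bmp10, Tbx5, Mybphl, Dkk3, Clu and Fgf12), with a median of 1.92 against 0.01 over all genes. Of 13 ventricular genes, 8 fell and none rose (Myl2, Irx4, Myl3, Hey2, Myh7, Pln, Mycn and Cited1), with a median of -1.88. Summed over its members, the atrial list ran from 84798 to 95128 in E13.5 hearts and from 468237 to 514781 in atria, and the ventricular list from 44559 to 61549 and from 8160 to 10719, while knockout ventricles reached 112661 to 123192. Irx4 and Hand1, both ventricular, were at 0 in all 3 atria. Transcripts of both chambers were abundant in the E13.5 hearts, and those of ventricular muscle were low in each atrium.

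Sln encodes sarcolipin, a small inhibitor of the sarcoplasmic calcium pump that is typical of atrial muscle. On chromosome 9 (bases 53850164 to 53854560, plus strand), it measured 316, 301, 380.5 and 314 at E13.5 and 9142, 5744 and 10118 in atria, 25.4 times higher by the group means, a difference of 4.63 (SE 0.27, limma adjusted p = 2.19e-05). Knockout ventricles of the same pups measured 249, 305 and 156, within or below the range of the embryos and far below the atria. Bmp10, a secreted growth factor of trabecular and then atrial muscle, rose from 128, 119, 71.6 and 157 to 2027, 2546 and 3734 (difference 4.54, SE 0.35, adjusted p = 1.35e-04) and measured 4.83, 13.97 and 0.871 in the ventricles. Nppa, the gene of atrial natriuretic peptide, measured 11961, 6073, 8757 and 9894 against 98476, 95071 and 379853, a difference of 4.10 (SE 0.53, adjusted p = 0.00343). Atrial replicate 3 held far more Nppa than the other atria, and without it the difference was 3.44 (adjusted p = 7.51e-05). Myl7, the atrial regulatory light chain of myosin, measured 6273, 5992, 6449 and 5974 and 26424, 25794 and 37203 (difference 2.25, SE 0.29, adjusted p = 0.00343). The embryos lay within a narrow band for Myl7 and every atrium was far above the highest of them.

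Several other genes rose beside them. Fgf12, which encodes an intracellular factor that modulates sodium channels, rose from 149, 227, 156 and 108 to 2613, 3893 and 1429 (difference 3.97, adjusted p = 6.21e-04). Mybphl, a myosin-binding protein of atrial muscle and the conduction system, rose by 4.92 and Dkk3, a secreted glycoprotein of the Dickkopf family, by 2.46 (adjusted p = 0.00906 and 0.00191). Tbx5, a T-box factor needed for atrial and septal development, measured 215, 195, 190.1 and 155 and 651, 796 and 655 (difference 1.89, SE 0.28, adjusted p = 0.00661). Myl1 and Myh8, an essential light chain and a perinatal heavy chain of skeletal muscle, rose by 2.02 and 4.67 (adjusted p = 0.00688 and 0.0039), and the receptor Epha4 by 2.35 (adjusted p = 0.00523). Myl4, the atrial essential light chain, measured 8344, 6749, 8806 and 8713 against 18870.2, 20946 and 13321 and was not called, although of the 7 fits that left out 1 library the one without atrial replicate 3 called it, as did 4 other alternatives (difference 1.10 and adjusted p = 0.101 with it, 1.29 and 0.00217 without).

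On the ventricular side Myl2, the ventricular regulatory light chain, had the smallest adjusted p of the genes named here. On chromosome 5 (bases 122100951 to 122113472, plus strand), it measured 16100.3, 16986, 20357 and 19812 at E13.5, 93.5, 97.2 and 51.2 in atria and 44516, 43106 and 51161 in the ventricles of the same pups. The mean of the E13.5 hearts was 227 times that of the atria (log2 difference -7.86, SE 0.29, limma adjusted p = 4.42e-07). Myl3, the ventricular essential light chain, measured 8801, 6509.7, 8747 and 9909 and 1322, 956 and 3139 (difference -2.41, SE 0.39, adjusted p = 0.00982), with atrial replicate 3 the highest of the atria; its call was lost without atrial replicate 1 (adjusted p = 0.0585). Irx4, a homeobox factor of ventricular muscle, measured 93.6, 101, 75.9 and 108 at E13.5 and is listed at 0 in every atrium. Hey2, a repressor of atrial genes in the compact ventricular wall, measured 1057, 907, 936 and 1331 against 35.9, 86.5 and 25.5 (difference -4.57, SE 0.41, adjusted p = 5.06e-04). Pln, the gene of phospholamban, and Myh7, the slow beta myosin heavy chain of the fetal ventricle, fell, with differences of -1.75 and -3.21 (adjusted p = 0.00618 and 0.00225). Prdm16, a zinc-finger factor of compact myocardium, measured 303, 387, 320.3 and 261 and 23.95, 18.4 and 37.6 (difference -3.57, adjusted p = 0.00183). Ddc, the gene of aromatic amino acid decarboxylase, fell by 3.39 (adjusted p = 0.0107).

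Promoters of 4 chamber genes are shown as examples, 3 that rose and Myl3 that fell, again as the 250 bases before the RefSeq start on GRCm38.p6. Capitals mark GATAA (in 22.6% of promoters), AAGTG (40.7%), the T-box pattern GGTGTGA (3.33%) and ATANAA (32.7%), searched on both strands. Sln, Tbx5 and Dkk3 are among the genes not matched there, with Hbb-bh1, and 16 of 20 genes looked up were matched. The fallen genes Myl2, Irx4, Hey2, Myh7 and Pln were matched but are not shown.
Nppa chr4:148000472-148000721 plus strand: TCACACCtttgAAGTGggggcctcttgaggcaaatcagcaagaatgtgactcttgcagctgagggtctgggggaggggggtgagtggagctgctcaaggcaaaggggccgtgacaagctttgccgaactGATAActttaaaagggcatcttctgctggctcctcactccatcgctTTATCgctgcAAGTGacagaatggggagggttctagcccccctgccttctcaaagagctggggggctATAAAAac
Myl7 chr11:5898783-5899032 minus strand: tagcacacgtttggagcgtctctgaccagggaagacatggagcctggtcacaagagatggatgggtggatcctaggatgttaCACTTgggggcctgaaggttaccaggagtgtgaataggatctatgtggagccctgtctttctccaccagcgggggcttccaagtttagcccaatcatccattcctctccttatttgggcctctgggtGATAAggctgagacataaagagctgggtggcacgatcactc
Bmp10 chr6:87428744-87428993 plus strand: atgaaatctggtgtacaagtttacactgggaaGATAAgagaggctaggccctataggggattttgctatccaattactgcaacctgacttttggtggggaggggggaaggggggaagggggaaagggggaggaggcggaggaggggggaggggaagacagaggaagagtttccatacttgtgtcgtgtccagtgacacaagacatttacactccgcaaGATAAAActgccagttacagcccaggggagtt
Myl3 chr9:110763428-110763677 plus strand: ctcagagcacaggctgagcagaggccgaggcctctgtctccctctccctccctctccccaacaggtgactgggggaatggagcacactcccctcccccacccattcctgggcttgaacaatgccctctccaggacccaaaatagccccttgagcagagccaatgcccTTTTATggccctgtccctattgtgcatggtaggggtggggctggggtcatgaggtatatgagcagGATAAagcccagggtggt
The Nppa window held 2 copies of GATAA (from -121 and -75), 2 copies of AAGTG (from -239 and -65), the T-box pattern from -250 and the ATANAA pattern from -8. Myl7 held GATAA once (from -41) and AAGTG once (from -168). Bmp10 held 2 copies of GATAA (from -218 and -32) and the ATANAA pattern (from -31), and Myl3 held 1 copy of each (from -18 and -83). GATAA was thus in the windows of the 3 risen genes and of Myl3, the only fallen gene shown.

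A test of atria against ventricles within the 3 knockout pups shows which of these differences lie between chambers at P3. Limma with the pup as a block called 29 of 14821 genes (0.196%), 14 higher in atria (0.0945%) and 15 lower (0.101%), while 1541 (10.4%) had an unadjusted p under 0.05. The atrial libraries of this test are the same as above, so the 2 sets of values stand side by side and are not independent. Sln was higher in atria than in ventricles by 5.14, Bmp10 by 8.94, Fgf12 by 5.29 and Myl7 by 4.95 (adjusted p = 0.00654, 0.00654, 0.00647 and 0.00825). Myl4, Myl1, Mybphl, Myh8, Epha4, Tbx5, Dkk3 and Npr3 were among the others called higher, by 3.01 for Dkk3 and 7.30 for Mybphl. Myl2 was lower, with a difference of -9.20 (adjusted p = 2.05e-04), as was the potassium channel subunit Kcne1 (-6.01, adjusted p = 0.00958), and Irx4, Ddc, Prdm16, Hey2, Mb, Myl3, Pln and Myh7 were called lower too. Leaving out pup 1 ended the calls of Myl4, Myh8, Epha4, Tbx5, Dkk3, Npr3, Myl3, Irx4, Pln, Myh7 and Mb, and leaving out pup 2 those of Tbx5, Myl3, Pln and Myh7, whereas 81 genes were called higher and 94 lower without pup 3. Nppa differed by 3.96 between the chambers (adjusted p = 0.0805; 0.0101 without pup 3).

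Some genes changed against E13.5 in atria and had much the same level in both P3 chambers. Tnnt1, the slow skeletal troponin T, measured 1499, 1680.5, 2387 and 2428 at E13.5, 374, 289.6 and 166 in atria and 361, 229 and 254 in ventricles, and fell by 2.89 in atria (adjusted p = 0.00191). The collagen-binding gene Dpt measured 92.3, 112, 103 and 113, 2349.8, 1764 and 2776 and 2536, 2902 and 2172 in the same order. The test between chambers gave them differences of -0.07 and -0.16 (adjusted p = 0.965 and 0.907), which does not show that the chambers are equal.

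**Figure D2:**
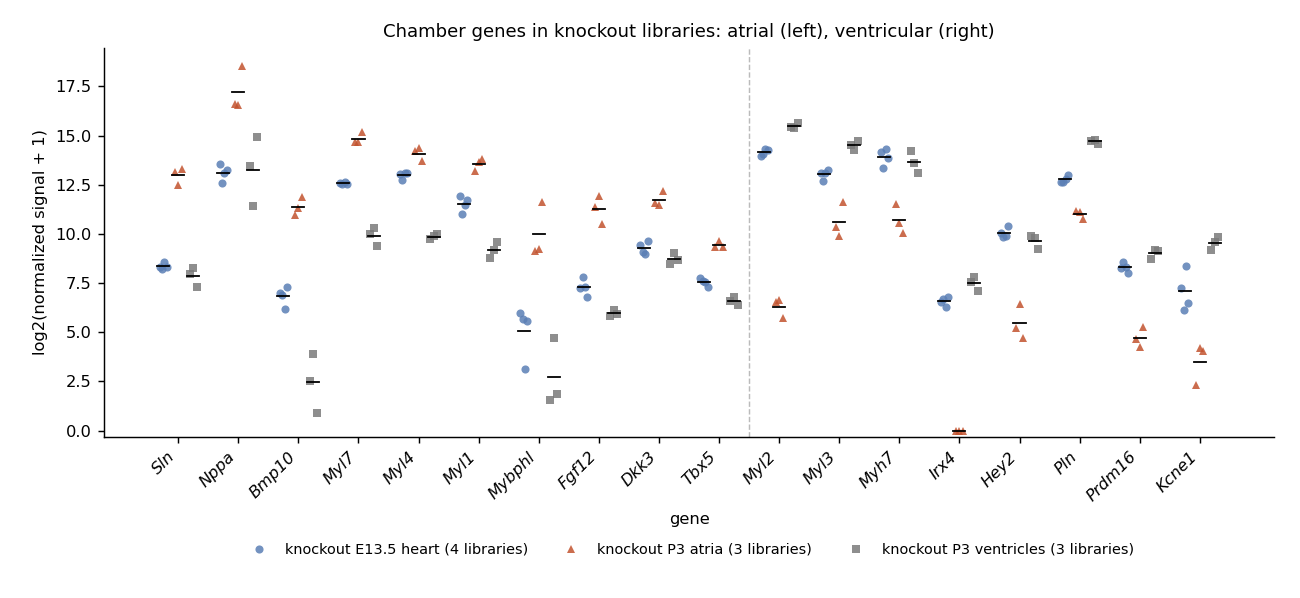
Log2(normalized value + 1) of atrial genes (left of the dashed line) and ventricular genes (right) in knockout E13.5 hearts (n = 4), P3 atria (n = 3) and P3 ventricles (n = 3), 1 point per library with a bar at each group mean. Sln, Bmp10, Myl7 and Nppa are highest in atria, and Myl2 is highest in ventricles and lowest in atria.

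Both natriuretic peptide genes and their clearance receptor rose in atria. Of the 9 genes of this system, 3 rose (Nppa, Nppb and Npr3) and none fell, with a median of 1.57. Nppb, which encodes B-type natriuretic peptide, measured 435, 354, 632 and 476 at E13.5 and 2769, 5153 and 2798 in atria, 7.53 times higher by the group means (log2 difference 2.88, SE 0.31, limma adjusted p = 0.00143), and 1411, 765 and 3922 in the ventricles. Its ventricular values overlapped the atrial ones, and the difference between chambers was 1.08 (adjusted p = 0.555). Npr3, the clearance receptor and an endocardial marker, measured 359, 225, 558 and 471 and 1143, 1324 and 1086 (difference 1.63, SE 0.33, adjusted p = 0.0354); 5 of the 7 fits that left out 1 library lost the call (adjusted p up to 0.117, without atrial replicate 1). Corin, the protease that activates the Nppa product, measured 442, 390.2, 390.0 and 553 and 1380.2, 994 and 574 with a difference of 1.07 that was not called (adjusted p = 0.149), but was called at 1.41 without atrial replicate 3 (adjusted p = 0.02) and also with sample weights.

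Sarcomere genes changed in both directions. Of 31 measured, 5 rose (Tnni3, Tagln, Tpm2, Myom2 and Ankrd1) and 2 fell (Myh7 and Tnnt1), with a median of 0.72. Myom2, an M-band protein of mature fast muscle, measured 81.8, 73.6, 129 and 63.7 at E13.5 and 780.1, 650.5 and 3216 in atria (difference 3.79, SE 0.53, limma adjusted p = 0.00506; 3.07 without the high atrial replicate 3). Tnni3, the adult cardiac troponin I, measured 4746, 4716, 5644 and 6025 and 11881, 11681 and 18354 (difference 1.38, SE 0.29, adjusted p = 0.0378), and its call was kept in only 1 of the 7 fits that left out a library, the one without atrial replicate 3 (highest adjusted p 0.131, without E13.5 replicate 1). The slow skeletal troponin I of the fetal heart, Tnni1, measured 4455, 2368, 4099.6 and 3542 and 1644, 1494 and 4455, with atrial replicate 3 at the top of the embryonic range (difference -0.66, adjusted p = 0.47; -1.17 and 0.0425 without that replicate). Myh6, the alpha myosin heavy chain, was higher in each atrium (73727, 72012 and 47749) than in any embryo (23697, 21358, 26889 and 22057) but was not called (difference 1.44, adjusted p = 0.0835); it was called without atrial replicate 3 (adjusted p = 2.22e-04) and under 4 other alternatives. Tagln, an actin-binding protein of smooth and immature heart muscle, rose by 1.93 (adjusted p = 0.0111).

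A few calcium handling genes of the sarcoplasmic reticulum changed. Of 20 measured, 3 rose (Atp2a2, Casq2 and Sln), Pln fell, and the median was 0.43. Casq2, the calcium-binding protein calsequestrin, measured 822, 1305, 1506 and 1134 and 3938, 3600.4 and 6299.9 (difference 1.94, SE 0.30, limma adjusted p = 0.0089). Atp2a2, the SERCA2 calcium pump, measured 7050.2, 6005, 6661 and 7320.5 and 17965, 19669 and 13611 (difference 1.32, SE 0.28, adjusted p = 0.0399), and like Tnni3 it kept its call in 1 of those 7 fits, the one without atrial replicate 3 (highest adjusted p 0.140, without atrial replicate 1). Both inhibitors of that pump were called, in opposite directions, Sln higher and Pln lower. Ryr2, the calcium release channel, measured 1224, 1037, 1387 and 1536 and 3135, 2685 and 1794 (difference 0.95, adjusted p = 0.132, and 0.0179 without atrial replicate 3).

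Ion channel and conduction genes were split between the directions. Of 24 measured, 1 rose (Kcnj5), 2 fell (Kcne1 and Isl1), and the median was -0.28, which was 0.12 without atrial replicate 3. Kcnj5, a subunit of the acetylcholine-gated potassium channel of atrial muscle, measured 303, 225, 151 and 338 and 834, 806 and 556 (difference 1.56, SE 0.35, limma adjusted p = 0.0464). Kcne1, an accessory subunit of the slow delayed rectifier, measured 153, 70.4, 333 and 89.9 and 3.97, 17.3 and 15.3, and 572, 766 and 910.3 in ventricles (difference from E13.5 -3.57, SE 0.72, adjusted p = 0.0327). Of the 7 fits that left out 1 library, the one without atrial replicate 3 alone kept both calls, with adjusted p up to 0.173 for Kcnj5 (without atrial replicate 1) and 0.108 for Kcne1 (without E13.5 replicate 3). Isl1, a transcription factor of the second heart field, outflow tract and sinus node, measured 109, 74.9, 25.8 and 143 in the embryos and 0.525, 0.932 and 0 in atria, a difference of -5.71 (SE 0.85, adjusted p = 0.00672). With 5 added before the logarithm that difference was -3.87.

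Fatty acid genes had mostly positive differences, and glycolytic ones were split between the directions in the fit of all 7 libraries. Of 36 genes of fatty acid uptake and oxidation, 27 had a positive difference (50.6% of all genes did), and the median was 0.71. Among them 3 rose (Acsl1, Pdk4 and Slc25a20) and none fell. Acsl1, which activates long-chain fatty acids, measured 141, 149, 111 and 197 at E13.5 and 526, 641 and 647 in atria, and 1626, 2351 and 1305 in ventricles (difference from E13.5 2.03, SE 0.31, limma adjusted p = 0.00759). Pdk4, the kinase that restrains pyruvate oxidation, measured 178, 80.6, 115 and 64.01 and 456, 507 and 319 (difference 2.04, adjusted p = 0.0336), and Slc25a20, the mitochondrial carnitine carrier, 139, 147, 192 and 159.5 and 391, 413 and 469.5 (difference 1.41, adjusted p = 0.0378). Neither call was stable: that of Pdk4 was lost in 5 of the 7 fits without 1 library (adjusted p up to 0.133, without atrial replicate 1) and that of Slc25a20 in all 7 (up to 0.120, without atrial replicate 1). The carnitine palmitoyltransferases Cpt1a and Cpt1b had differences of 1.05 and 0.77 (adjusted p = 0.0996 and 0.197). None of the 25 glycolysis genes was called, and their median was -0.06, with 6 wholly below the embryos and 1 wholly above (7.08% and 8.67% of all genes). Their summed level was 31004, 29113 and 78561 in atrial replicates 1 to 3, against 34360 to 46939 in the embryos. Without atrial replicate 3 the median was -0.64 and 1 of these genes was called lower.

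A single respiratory chain subunit rose. Cox8b, the muscle form of a cytochrome oxidase subunit, measured 293, 164, 285 and 265 and 850.3, 937 and 1357 (difference 2.06, SE 0.32, limma adjusted p = 0.0076), the only call among 78 nuclear genes with a median of 0.18. Ckmt2, the mitochondrial creatine kinase of striated muscle, rose from between 50.2 and 96.6 in the embryos to 251, 598 and 508 in the atria (difference 2.69, adjusted p = 0.00906; 0.0535 without atrial replicate 2). The 15 transcripts of the mitochondrial genome had a median of -0.59 with none called and every difference negative, but their summed level ranged from 232866 to 2514930 among the atria, against 1709460 to 2135300 in the embryos, and without atrial replicate 3 the median was 0.30. Myoglobin, Mb, overlapped between the groups at 692, 643, 959 and 727 and 323, 346 and 1357 while ventricles held 8161, 8345 and 8269.

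**Figure D3:**
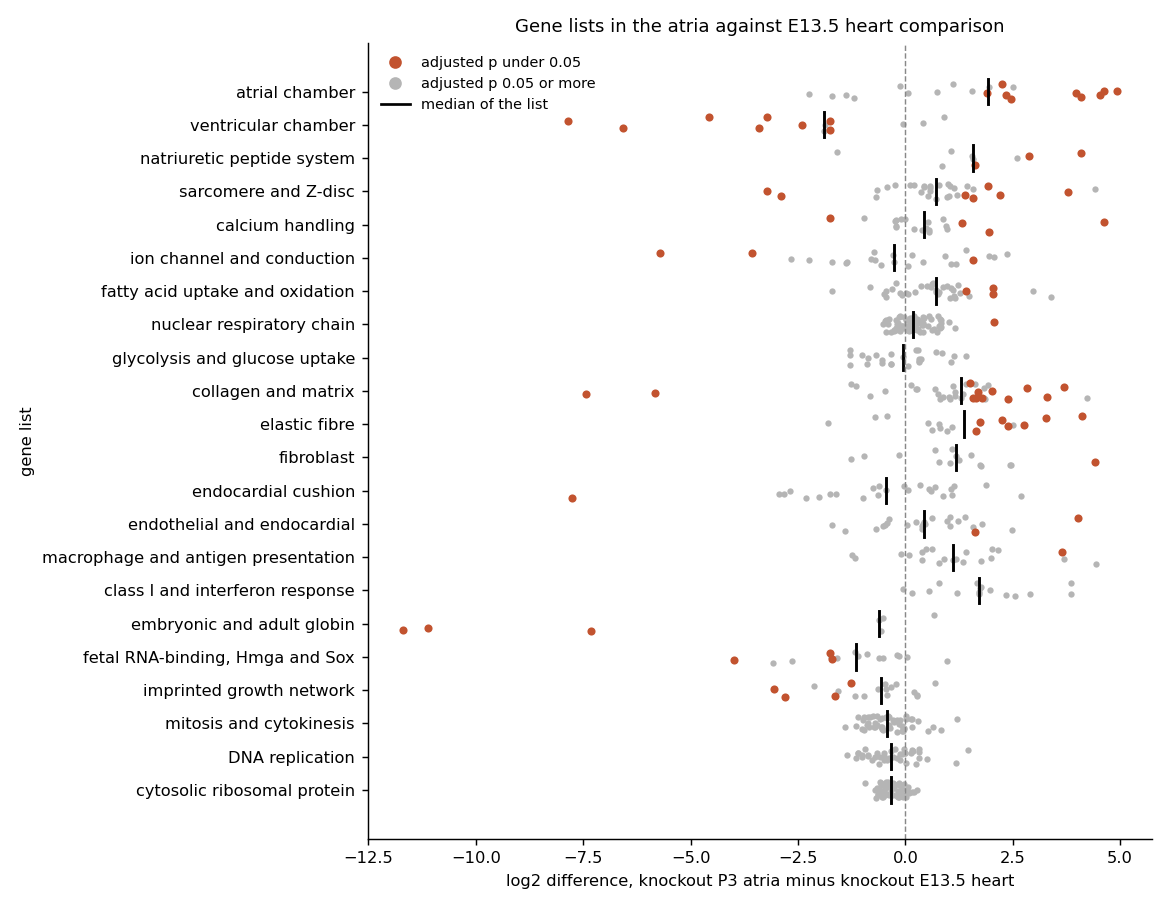
Differences of knockout P3 atria from knockout E13.5 hearts on the log2(value + 1) scale for the genes of 22 lists, 1 point per gene, coloured where the adjusted p was under 0.05, with a bar at the median of each list. Atrial, elastic fibre and collagen genes lie mostly above 0 and ventricular and fetal RNA-binding genes below it.

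Extracellular matrix genes were frequent among those that rose. Of 37 collagen and matrix genes, 10 rose and 2 fell with a median of 1.30, and of 18 elastic fibre genes 7 rose and none fell with a median of 1.36 (Lox and Loxl1 stand in both lists). Eln, the gene of elastin on chromosome 5 (bases 134702593 to 134747323, minus strand), measured 564, 968, 1024 and 529.8 at E13.5 and 8378, 7065 and 34714 in atria (difference 4.11, SE 0.51, limma adjusted p = 0.00317). The third atrial replicate lay far above the other atria, and without it the difference was 3.38 (adjusted p = 4.93e-04). Ventricles measured 2406, 2527 and 3573. Fbn1, the fibrillin of mature microfibrils, rose from 766, 796, 778 and 994 to 2502, 2418 and 3454 (difference 1.73, SE 0.25, adjusted p = 0.00618), whereas Fbn2, the fibrillin that predominates in the fetus, measured 2061, 2338, 2417 and 2143 and 1666, 1191 and 1303 (difference -0.70, adjusted p = 0.195). Fbln2, a fibulin of the outflow tract and vessels, rose by 2.26 (adjusted p = 0.00931). The crosslinking oxidases Lox and Loxl1 rose by 1.65 and 2.39 (adjusted p = 0.0354 and 0.0266), calls that 5 of 7 fits without 1 library lost for each gene (adjusted p up to 0.133, without atrial replicate 1, and 0.0819, without E13.5 replicate 3).

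Genes for proteins that bind collagen fibrils differed in both directions, and the main fibrillar collagens were not called. Dpt, dermatopontin, measured 92.3, 112, 103 and 113 in the embryos and 2349.8, 1764 and 2776 in the atria, 21.9 times higher by the group means (log2 difference 4.42, SE 0.28, limma adjusted p = 2.91e-05). Aspn, the small leucine-rich protein asporin, rose from 95.9, 162, 163 and 187 to 4494, 4722 and 2088 (difference 4.58, SE 0.36, adjusted p = 1.83e-04), and the related osteoglycin gene Ogn by 2.83 (adjusted p = 0.00462). Col14a1, a fibril-associated collagen, rose by 3.68, Igfbp7, a secreted binding protein of vessels and stroma, by 3.86 and the fibronectin-domain gene Fndc1 by 4.38 (adjusted p = 0.0051, 1.35e-04 and 0.0107; 0.0513 for Fndc1 without atrial replicate 1). Lum, the fibril-binding proteoglycan lumican, was lower in each atrium (541, 733 and 484) than in any embryo (1196, 1758, 1075 and 1646) and just missed the threshold (difference -1.27, SE 0.29, adjusted p = 0.0512), which it passed under 6 alternatives. Col1a1 and Col3a1, those main collagens, had differences of 1.04 and 1.16 and were not called (adjusted p = 0.202 and 0.102; 0.0286 for Col3a1 without atrial replicate 3). Summed over the list, collagen and matrix genes ran from 44468 to 61338 at E13.5 and from 105513 to 135348 in atria. Among 15 fibroblast markers 12 were positive (50.6% of all genes were), with a median of 1.17, and only Dpt was called.

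Some matrix genes of cartilage and of the embryonic cushions fell. Col9a1, a collagen of cartilage and valve primordia, measured 117, 302, 109 and 219 at E13.5 and is listed at 0 in all 3 atria, and Col2a1 fell with it. Hapln1, which links hyaluronan to proteoglycan in the cushions, measured 371, 278, 281 and 601 against 0, 0 and 3.83 (difference -7.75, SE 0.72, limma adjusted p = 5.06e-04; -5.93 with 5 added before the logarithm). In ventricles Hapln1 was at 33.8, 28.5 and 1.74, overlapping the atria, and Col9a1 at 18.4, 60.7 and 8.71, between the other groups. Twist1, a mesenchymal factor of the cushions, measured 70.8, 110.3, 75.1 and 149.6 and 22.5, 17.9 and 16.6 (difference -2.30, adjusted p = 0.0549). Of 25 cushion genes only Hapln1 was called, 11 lay wholly below the embryos and 4 wholly above (7.08% and 8.67% of all genes). The median of these 25 was -0.44, and -0.03 without atrial replicate 3. Whether the atrial dissection held less valve tissue than a whole heart was not tested.

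**Figure D4:**
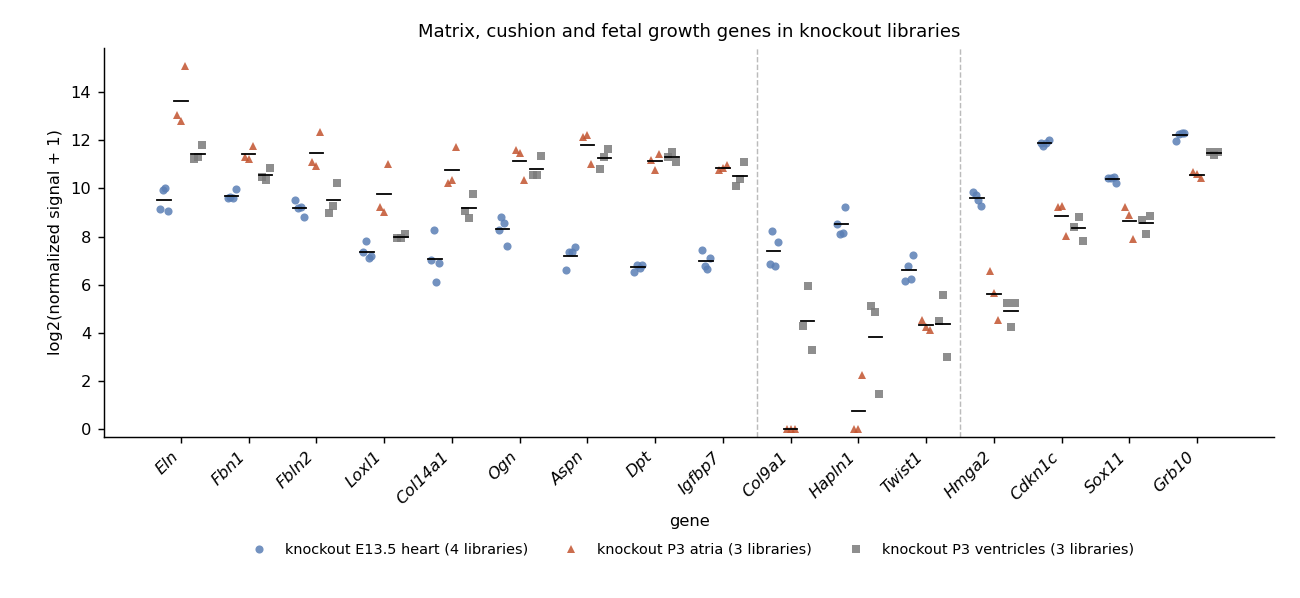
Log2(normalized value + 1) of matrix, cushion and fetal growth genes (set apart by dashed lines) in each knockout library of E13.5 hearts (n = 4), P3 atria (n = 3) and P3 ventricles (n = 3), with a bar at each group mean. Elastic fibre and fibril-associated genes are higher in the 3 atria than in the 4 embryos, and Hapln1, Col9a1 and Hmga2 are lower.

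Several fetal growth regulators fell. Hmga2, a chromatin protein of growing fetal tissue, measured 924, 838, 739 and 613 at E13.5, 94.9, 49.8 and 22.3 in atria and 36.7, 18.2 and 37.4 in ventricles (difference from E13.5 -3.99, SE 0.45, limma adjusted p = 0.00183). Cdkn1c, an imprinted inhibitor of the cell cycle, measured 3741, 3508, 3831 and 4169 and 592, 616 and 262 (difference -3.05, SE 0.32, adjusted p = 0.00118). For Cdkn1c both the atria and the knockout ventricles (336, 444 and 225) lay far below the lowest embryo. Igf2bp2 and Sox11, an RNA-binding protein and a transcription factor of embryonic tissue, fell, with differences of -1.76 and -1.72 (adjusted p = 0.0378 and 0.0255), so that 3 of 16 genes of the fetal RNA-binding, Hmga and Sox list fell, with a median of -1.14. Of 18 imprinted growth genes 4 fell (Cdkn1c, Grb10, Dlk1 and Rian), none rose, and the median was -0.56. Grb10, an adaptor that restrains insulin signalling, measured 4014, 4868, 4997 and 5020.4 and 1643, 1532 and 1364 (difference -1.64, SE 0.24, adjusted p = 0.00618), and Dlk1 and the noncoding Rian of 1 imprinted locus fell, with differences of -2.81 and -1.26 (adjusted p = 0.0406 and 0.0461). Of the fits without 1 library, 6 of 7 lost Igf2bp2 (adjusted p up to 0.123, without E13.5 replicate 3), Dlk1 (0.132, without E13.5 replicate 1) and Rian (0.134, without atrial replicate 2), and 5 lost Sox11 (0.0825, without E13.5 replicate 3).

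Cell cycle genes had mostly negative differences, none of them called. Of 53 genes of mitosis and cytokinesis 43 had negative differences, with a median of -0.42, where 50.6% of all genes were positive. Of the 53, 9 lay wholly below the embryos and 2 wholly above (7.08% and 8.67% of all genes), and limma called none. Their summed level was 41516 to 45120 at E13.5 and 20943 to 37200 in atria, where replicate 3 was the lowest. Mki67, a marker of cycling cells, measured 3846, 3493, 3655 and 4604 and 3554, 3204 and 1138 (difference -0.72, adjusted p = 0.403). Top2a, the topoisomerase of dividing cells, measured 6128, 4594, 5282 and 5631 and 3884, 3831 and 979 (difference -1.14, adjusted p = 0.26). In both genes atrial replicates 1 and 2 lay just below or within the range of the embryos and replicate 3 was far lower; without it their differences were -0.20 and -0.48 (adjusted p = 0.654 and 0.18). DNA replication genes, 41 of them, had a median of -0.32 and ribosomal protein genes, 61 of them, one of -0.34, again with none called.

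Among other cell types, endothelial and immune markers had mostly positive differences with few calls. Vwf, a clotting factor of mature endothelium, measured 28.01, 12.7, 50.96 and 119 and 582, 475 and 939.9 (difference 4.01, SE 0.65, limma adjusted p = 0.0106; 0.0537 without atrial replicate 1). Of 25 endothelial and endocardial genes, 2 rose (Vwf and Npr3), with a median of 0.43. Of the 25, 10 lay wholly above the embryos and none wholly below (8.67% and 7.08% of all genes). Macrophage genes numbered 21, of which 18 were positive (50.6% of all genes were) with a median of 1.10. Only the complement gene C1qc was called, at 27.8, 2.96, 5.18 and 14.2 against 96.6, 125 and 169 (difference 3.65, adjusted p = 0.0417; 0.101 without atrial replicate 3), and 6 of the 7 fits without 1 library lost it (adjusted p up to 0.126, without atrial replicate 1). Timd4, a receptor of resident macrophages, is listed at 0 in all 4 embryos and all 3 knockout ventricles and measured 20.2, 33.9 and 12.8 in the atria (adjusted p = 0.0577). Timd4 passed the filter only through the atria, which fixed the separation of its groups. Of 16 class I and interferon response genes, 15 were positive with a median of 1.72, 8 lay wholly above the embryos (8.67% of all genes) and none was called. Gap43, a protein of growing axons, measured 221, 344, 130.1 and 335 and 55.1, 32.6 and 45.1 (difference -2.44, adjusted p = 0.0227; up to 0.0771 on leaving out 1 library, without E13.5 replicate 2, with 5 of 7 fits losing the call). Msln, a mesothelial marker, rose from 42.4, 22.7, 65.6 and 15.7 to 180.3, 248 and 455 (difference 3.07, adjusted p = 0.025; 0.0644 without atrial replicate 3, with 6 of 7 fits losing the call and up to 0.0771, without atrial replicate 2).

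Markers of lung, thymus, liver and fat were scarce, and those of skeletal muscle were not. Lung markers summed to 0 to 33.1 in the embryos and 0 to 2.78 in atria, and thymus markers to 26.6 to 77.9 and 27.02 to 39.2. Liver markers ran from 12.6 to 283 and from 118 to 369, fat markers from 51.6 to 112 and from 49.7 to 197. Ahsg, a plasma protein made by the fetal liver, is listed at 0 in all 4 embryos and measured 96.03, 47.8 and 343 in atria and 12.6, 21.9 and 47.9 in ventricles (adjusted p = 0.00506). Ahsg passed the filter only through the atria, which fixed the separation of its groups. Skeletal muscle markers summed to 2344 to 4298 in embryos and 10260 to 14778 in atria, led by Myl1, which is also called higher in atria than in ventricles. Of the 6 tested, 3 had positive and 3 negative differences with a median of 0.40, Myl1 and Myh8 rose and Mybpc1 fell. Mybpc1, the slow skeletal myosin-binding protein C, measured 37.6, 72.7, 46.8 and 94.7 in the embryos and 0, 1.67 and 0 in atria (difference -5.44, SE 0.83, adjusted p = 0.00751; -3.55 with 5 added before the logarithm). The part of such tissue in the other results was not tested.

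Genes outside these lists with large differences included signalling molecules in both directions. Gtsf1, a gene of germline small RNA silencing, measured 457, 390.0, 471 and 509 and 11.9, 35.5 and 10.3 (difference -4.70, SE 0.47, limma adjusted p = 8.23e-04). Cxcl12, a chemokine that guides coronary vessels, measured 469, 702, 504 and 489.9 and 37.8, 39.2 and 44.7 (difference -3.69, SE 0.33, adjusted p = 4.66e-04), with embryo 2 the highest and the 3 atria close together. The phosphodiesterase gene Mpped2, the growth factor gene Bmp7, the orphan receptor gene Gpr22 and the activin-type receptor gene Acvr1c fell, with differences of -5.27, -3.47, -4.21 and -4.57 (adjusted p = 0.00523, 0.00618, 0.00672 and 0.0136; 0.0549 for Acvr1c without E13.5 replicate 2). Upward, Sost, an inhibitor of Wnt signalling, rose from 43.6, 73.9, 27.6 and 51.3 to 717, 1113 and 370.3 (difference 3.82, SE 0.48, adjusted p = 0.00317). Ctgf, a matricellular growth factor induced by stretch, measured 175, 307, 314 and 293 and 2147, 2780.4 and 1517, and 1753, 1344 and 4087 in ventricles (difference from E13.5 2.97, SE 0.32, adjusted p = 0.0013). Thrb, a thyroid hormone receptor, measured 0.813, 3.69, 0 and 1.33 and 63.6, 61.6 and 55.9 (difference 4.86, adjusted p = 0.0199) and lost its call when any atrium was left out (adjusted p up to 0.111, without atrial replicate 1). Sod3, the extracellular superoxide dismutase, is listed at 0 in all 4 embryos and measured 46.6, 18.9 and 493 in atria (adjusted p = 0.0231; 0.108 without atrial replicate 3, with 5 of 7 fits losing the call). Thrb and Sod3 passed the filter only through the atria, which fixed the separation of their groups.

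Wild-type littermates were used to ask which of these differences depend on the genotype. In wild-type, P3 atria against E13.5 hearts, limma called 671 of 17335 genes (3.87%), 390 higher and 281 lower. This contrast came from the fit of 14 libraries of both genotypes, whereas the knockout calls came from the 7 knockout libraries alone. Of the 309 genes called in knockout, 303 had the same sign in wild-type (98.1%, against 69.1% of all genes with a value) and 178 were called in both. Sln differed by 5.93 in wild-type and Myl2 by -6.56, beside 4.63 and -7.86 in knockout, and the values were -11.16 and -11.69 for Hbb-y, 5.61 and 4.42 for Dpt and -5.11 and -3.99 for Hmga2. Wild-type atrial replicate 2 held ventricular transcripts, with Myl2 at 9242 where replicate 1 had 40.8. Without it, 299 of the 309 (96.8%, against 70.5% of all) kept the sign, 573 genes were called in wild-type and 161 in both.

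The difference between the genotypes' contrasts was tested gene by gene in the 14 libraries. Limma called 0 of 17335 genes (0%), with a smallest adjusted p of 0.0787, while 710 (4.1%) had an unadjusted p under 0.05, 352 with a more positive difference in knockout and 358 with a more negative one. With the litter as a block, since knockout and wild-type animals of 1 number came from 1 litter, 3 genes were called, all with a more positive difference in knockout: Mest, Nppb and Casq1 (adjusted p = 0.00201, 0.0032 and 0.0032). Without replicate 3 of both atrial groups 5 were called more positive and 1 more negative, among them the same 3 genes, Birc5 and, more negative, Lum.

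Nppb rose in knockout atria, whereas in wild-type the atria overlapped the embryos. Wild-type littermates measured 398, 536, 888 and 634 at E13.5 and 276, 626 and 179 in atria, a difference of -0.90 beside 2.88 in knockout. Only wild-type atrial replicate 2 lay within the range of the embryos, and without it the wild-type difference was -1.40 (limma adjusted p = 0.0615). The contrasts differed by 3.78 (SE 0.57, limma adjusted p = 0.0787; 0.00888 without wild-type atrial replicate 2 and 0.0032 to 0.277 over the 12 alternatives tried). All 3 knockout atria lay above all 3 wild-type atria. Mest, an imprinted gene of fetal mesoderm, overlapped between knockout atria and knockout embryos: 10213, 8813, 9037 and 12390.4 at E13.5 and 9463, 13529.6 and 12112 at P3, against 9735, 12569, 11476 and 11411 and 2405, 3004 and 2306 in wild-type. Its contrasts differed by 2.35 (SE 0.38, adjusted p = 0.0787; 0.133 without wild-type atrial replicate 2, and 0.00201 to 0.315 over the alternatives). Knockout ventricles measured 2645, 1941 and 2292, overlapping the wild-type atria and well below the knockout atria. Casq1, the calsequestrin of fast skeletal muscle, measured 538, 415, 565 and 478 and 424, 540.0 and 1628 in knockout and 339, 574, 834 and 569.7 and 26.4, 54.96 and 79.6 in wild-type, and the contrasts differed by 4.01 (SE 0.65, adjusted p = 0.0787; 0.224 without wild-type atrial replicate 2, and 0.0032 to 0.293 over the alternatives). The 3 wild-type atria were far below all knockout atria and all embryos of either genotype for Casq1, and knockout atrial replicate 3 was the highest of these 14 libraries. Mest and Casq1 are among the 36 of 99 genes tabulated for the text whose exons overlap another annotated gene. Whether the counting used strand is not given in the sources used here.

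Birc5 and Lum were further from the threshold in the fit of all 14 libraries. Birc5, the mitotic inhibitor of apoptosis survivin, measured 919, 1136, 1402 and 1113 and 785, 823 and 515 in knockout and 1359, 1098, 1367 and 1448 and 220.2, 252 and 262 in wild-type (contrasts differing by 1.72, SE 0.36, limma adjusted p = 0.646; 0.0417 without replicate 3 of both atrial groups, and 0.0417 to 1.00 over the alternatives). Lum, the matrix proteoglycan lumican, had differences of -1.27 in knockout and 0.80 in wild-type (contrasts differing by -2.06, SE 0.41, adjusted p = 0.422; 0.0417 without those replicates, and 0.0417 to 1.00 over the alternatives).

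Some lists leaned to 1 side in the difference between the genotypes. Of 53 genes of mitosis, 47 had a more positive difference in knockout than in wild-type, with a median of 0.73, where 49.7% of all genes did so with a median of -0.01. At an unadjusted p under 0.05 there were 9 mitosis genes more positive and 1 more negative (18.9% of them, against 4.1% of all genes), and with the litter as a block 22 and 1, where all genes gave 793 and 615. In wild-type the list had a median of -1.23 with 14 called lower, beside -0.42 and 0 in knockout. The wild-type calls came from the fit of 14 libraries (3.87% of genes called) and the knockout ones from 7 (2.02%). Their counts are therefore not directly comparable. DNA replication genes were more positive in knockout in 33 of 41 cases, with a median of 0.55, but 1 of them had an unadjusted p under 0.05 (2.44%, below the share of all genes) and 6 with the litter as a block. Ribosomal protein genes were more positive in 60 of 61 cases, with a median of 0.79. Of those ribosomal genes 16 were more positive at an unadjusted p under 0.05 and 0 more negative, and 50 and 0 with the litter as a block. Genes of fatty acid oxidation leaned the other way, 10 of 36 more positive with a median of -0.39. Again from those unlike fits, 9 of these 36 genes rose in wild-type and 3 in knockout. At an unadjusted p under 0.05, 0 of these were more positive and 3 more negative. No member of these 4 lists passed the adjusted threshold for the difference itself in the fit of all 14 libraries, and Birc5 alone did in any alternative. Members of a list vary together across libraries, so these counts describe the 14 libraries.

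**Figure D5:**
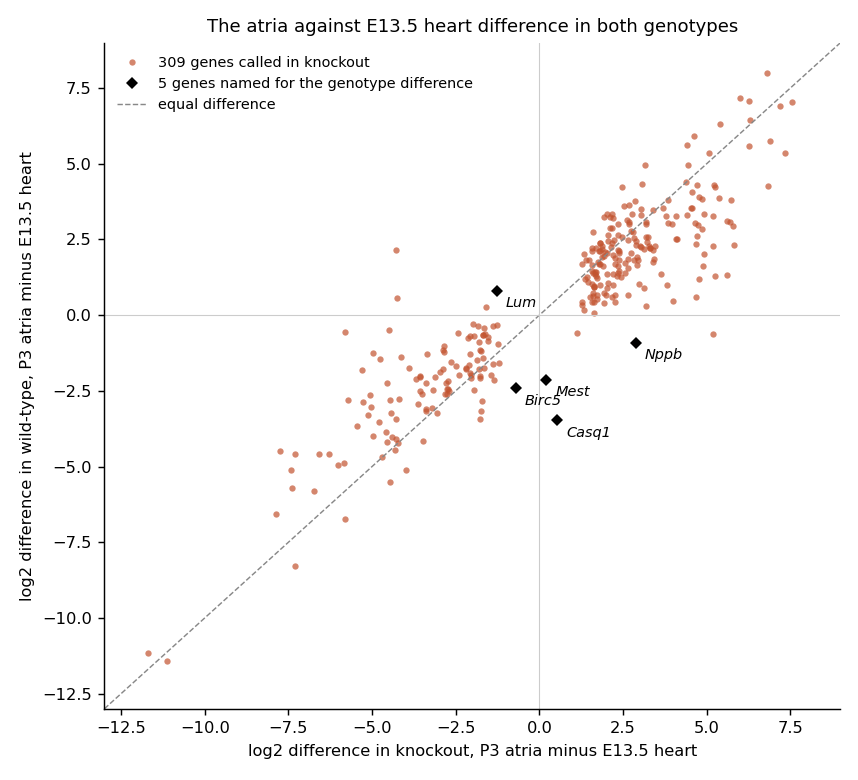
Difference of P3 atria from E13.5 hearts on the log2(value + 1) scale in knockout (horizontal axis) and wild-type (vertical axis) for the 309 genes called in knockout, 1 point per gene, and for 5 genes named for the genotype difference (diamonds). All but 6 of the 309 have the same sign in both, and Nppb, Mest, Casq1 and Birc5 lie below the dashed line of equal difference.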

How the data were processed

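RNA of frozen hearts and heart chambers (RNeasy Micro kit) was made into SMART-Seq2 libraries, per the labels' protocols. The authors deposited a single table (26440 genes, 20 libraries) of normalized signal, linear in scale. No source used here gives the scaling step. Tools named without a role in the submitters' processing notes are bcl2fastq 2.2, STAR 2.5.1 and DESeq2, and the build is mm10. Depth was estimated from the step between low values, covers counting error only and limits low genes most. Unused sample columns numbered 0.

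Tests were run on log2(value + 1) with limma 3.58.1 in R 4.3.3 (variance trend, 5 residual and a median of 5.72 prior degrees of freedom), over genes of at least 10 in at least 3 of the 7 libraries. They were two-sided with Benjamini-Hochberg adjustment. The constant of 1 understates the change of low genes. The genotype difference was a contrast of 4 group means over 14 libraries, and chambers were compared with the pup as a block. Libraries are separate animals, and embryos 2 and 3 share a litter. Same-numbered atria and embryos come from different litters and correlated at -0.05 to 0.08, so the numbers do not pair them. Knockout and wild-type animals of a number share a litter per the labels. The fits were checked on simulated data.

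Genes were named by rule: Creld1 and its paralog; in each direction the 12 with the largest difference among genes called both with and without atrial replicate 3, at or above the median level, not overlapping, with a proper symbol and not sex-linked; from every list the first 3 members and the 3 others of smallest p; and by a like rule up to 8 per direction for the genotype and chamber tests, or the 5 of smallest p where under 3 were called. A subset of these is printed. Of the 99 genes tabulated for the text, 36 share exon sequence with another annotated gene, and whether reads were counted by strand is not given in the sources used here, so reads of such partners may not be told apart. Members and lists were chosen with earlier results of these data known. Lists got counts and medians and no test. Positions are from GENCODE vM21 on GRCm38 (mm10), promoters from RefSeq.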

Additional observations from a re-analysis of the deposited data

Results flagged for a closer look

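In the group of 4 knockout embryos, 6 of the 96 genes examined had 1 library whose gap to the nearest other was above Dixon's critical value, where chance flags about 1 in 20. Sox11 was low in embryo 4, at 1179.9 where the others lay between 1382 and 1407. Grb10 was low in embryo 1, at 4014 against 4868 to 5020, and Ctgf was low in the same embryo, at 175 against 293 to 314. Fbn1 was high in embryo 4, at 994 against 766 to 796. Embryo 2 was high in Cxcl12, at 702 against 469 to 504, and in Acvr1c, at 809.8 against 511 to 562.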

How the results depend on the processing

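For knockout atria against knockout E13.5 hearts, limma called 194 genes higher and 115 lower. Leaving out 1 library gave 74 to 211 and 58 to 143. Leaving out the 2 libraries of doubtful Creld1 gave 42 and 39, sample weights 567 and 459, and Xist as a covariate 94 and 61. A replicate block, which also left out E13.5 replicate 4, gave 101 and 51 (138 of the 309 shared). Leaving out that embryo without a block gave 123 and 68. The block used replicate numbers, which do not pair atria with embryos. With all 20 libraries in the fit 372 genes were called higher, and without the variance trend 124. Libraries prepared in 2018 only, with 1 embryo assumed to vary like the atria, left 0 and 0, with 1317 genes at an unadjusted p under 0.05. Of the calls 62.8% were higher, but 50.3% without atrial replicate 1, 53.1% without atrial replicate 2 and 51.9% without the doubtful libraries. The cause of these shifts was not tested.

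The genotype difference had 0 calls. Leaving out replicate 3 of both atrial groups gave 5 higher and 1 lower, a litter block 3 higher, quantile normalization 1 higher, and leaving out wild-type atrial replicate 2, chosen after seeing the data, 1 higher. Between the chambers 14 were higher and 15 lower. No replicate block gave 30 and 36 and quantile normalization 22 and 24. Leaving out 1 pup gave 11 to 81 and 7 to 94.

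Of 74 called genes named, 51 kept their call in all 7 fits without 1 library. Over all alternatives, 1805 of 2173 values for 99 genes kept their direction and side of the threshold, 309 lost the call, 51 gained it and 8 changed sign. The 8 were Hbb-bs with sample weights (-0.064), Hbb-bt (0.69), Hba-a2 (0.73) and Mest (-0.098) with libraries of 2018 only, Hba-a2 with quantile normalization (0.022) and without the doubtful libraries (0.072), and Casq1 with sample weights (-0.092) and without atrial replicate 3 (-0.051 to 0.919 on leaving out 1 library). None of these had been called. Of the lists described, the medians of ion channel, glycolysis, mitochondrially encoded, globin, erythroid, liver, fat, skeletal muscle and antioxidant genes changed sign under at least 1 alternative.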

Other observations

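Several lists had values not given above, to be read beside the 50.6% of all genes with a positive difference. Of 29 genes of the endoplasmic reticulum stress response and its chaperones, 23 had positive differences with a median of 0.32, and only Herpud1, a gene of protein degradation at the reticulum, rose. Of 14 genes of thyroid hormone and glucocorticoid signalling, 12 were positive with a median of 0.88, and Thrb alone rose. Immediate early genes, 19 of them, had 15 positive differences and a median of 0.57, and Ctgf alone rose. Smooth muscle and pericyte genes, 16 of them, had 13 positive differences and a median of 0.90, and Tagln alone rose. Antioxidant genes, 26 of them, had a median of 0.40, and Sod3 and Prdx5, a peroxiredoxin, rose. None of 12 genes of the Creld family and of calcineurin and NFAT signalling was called by limma, with a median of 0.40.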
